A study of Homo sapiens with 4 samples.

Results

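The major histocompatibility complex (MHC) was described by the methylation of its CpG cytosines in primed and naive human embryonic stem cells. The region was taken as chromosome 6, 29680 to 33120 kb (hg19), without the stretch from 31127 to 31144 kb, and divided into class I (29680 to 31480 kb), class III (31480 to 32360 kb) and class II (32360 to 33120 kb). A cytosine was included if at least 10 reads covered it in every library. Of 411226 such cytosines in all, 2242 lay in the MHC, 1194 of them in class I, 639 in class III and 409 in class II. These were summarised in 160 tiles of 1 kb that held at least 5 cytosines each (84, 44 and 32 tiles), which together took in 1527 cytosines.

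The DNA was that of the established human embryonic stem cell line H9 and was bisulfite sequenced after capture of methylation targets, in 4 libraries. Wild-type (WT) cells and B3GALT5-/- (KO) cells, which lack a galactosyltransferase of glycosphingolipid synthesis, were each measured in the primed state in basal medium. Naive WT cells had been kept in 5iLAF medium and naive KO cells in 2iLAF medium, so genotype and medium differed together in the naive state and cannot be told apart. Whether the KO cells were 1 clone or several is not given in the sources used here. Each group held 1 library, so no difference between groups has a replicate check, and the only p-value between conditions comes from taking the genotypes as 2 pairs. SDs below are over cytosines, which share a library and are not replicates.

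Primed human embryonic stem cells resemble the epiblast after implantation and carry a highly methylated genome, whereas naive cells resemble the epiblast before implantation and carry less methylation. The MHC is among the most gene-dense and variable stretches of the human genome. Class I genes encode proteins that present peptides from inside the cell to CD8+ T cells or bind receptors of natural killer cells, and class II genes encode the proteins with which specialised cells present peptides to CD4+ T cells. The class III stretch between them holds complement components, tumour necrosis factor cytokines and heat shock proteins. Embryonic stem cells are known for little surface class I and no class II protein, and methylation of CpGs at a promoter is generally associated with low transcription.

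The libraries listed between 2018895 and 2340330 cytosines at a median of 7 to 13 reads, and 82.3 to 83.9% of the listed cytosines were on the minus strand. Only cytosines with at least 1 methylated read were listed, so unmethylated CpG islands, the usual state of active promoters, do not appear and low levels are raised by this selection. In the MHC 13016 cytosines were listed in at least 1 library and 6255 in all 4. The median coverage of the 2242 cytosines was 18 reads in WT primed, 21 in KO primed, 19 in WT naive and 30 in KO naive cells. The class I genes are near copies of each other, and so are several class II and heat shock genes, so reads could be assigned to the wrong copy and the levels at these genes are uncertain. Cytosines above 100 reads on average, which can lie in repeated sequence, numbered 16 in the MHC (0.714%, against 1.23% in the rest of chromosome 6).

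Genes were named only where a RefSeq promoter sequence could be laid on the deposited positions by the spacing of its CpGs, which placed 30 of 203 promoter windows (29 of 155 genes). A window ran from 250 bases before to 50 bases after the start of transcription. The sequences below are those of the 6 placed windows with at least 6 measured cytosines, and they are shown because the differences at named genes were measured on these CpGs. Each gives the 250 bases before the start, 5′ to 3′ on the gene's strand, with letters from RefSeq (GRCh38.p14) and hg19 positions from the CpG spacing. Capitals mark the CpGs with a measured cytosine. HLA-G encodes a nonclassical class I protein best known from the placenta, and its sequence lies on the plus strand at chr6:29795352-29795601. TNF (tumour necrosis factor) lies on the plus strand at chr6:31543092-31543341, and its neighbour LTA (lymphotoxin alpha, a related cytokine) on the plus strand at chr6:31539816-31540065. HCG4 and HCG4B are noncoding RNA genes of the class I stretch on the minus strand, at chr6:29760851-29761100 and chr6:29894993-29895242. HLA-DQA1-AS1, antisense to the class II gene HLA-DQA1, lies on the minus strand at chr6:32609088-32609337.
HLA-G: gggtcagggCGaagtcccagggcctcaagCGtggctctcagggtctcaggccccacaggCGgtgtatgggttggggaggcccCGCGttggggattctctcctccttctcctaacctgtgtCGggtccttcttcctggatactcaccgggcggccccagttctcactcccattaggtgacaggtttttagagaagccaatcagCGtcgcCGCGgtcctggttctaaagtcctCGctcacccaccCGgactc
TNF: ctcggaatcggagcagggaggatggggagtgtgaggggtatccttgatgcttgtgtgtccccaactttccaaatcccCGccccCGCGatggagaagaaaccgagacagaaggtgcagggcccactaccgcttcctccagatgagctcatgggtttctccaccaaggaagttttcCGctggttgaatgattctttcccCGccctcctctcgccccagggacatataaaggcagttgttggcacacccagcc
LTA: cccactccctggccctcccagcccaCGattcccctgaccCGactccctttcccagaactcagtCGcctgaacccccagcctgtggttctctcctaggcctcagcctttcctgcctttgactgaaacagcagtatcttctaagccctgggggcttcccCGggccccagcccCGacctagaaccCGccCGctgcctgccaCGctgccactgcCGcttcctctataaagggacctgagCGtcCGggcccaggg
HCG4: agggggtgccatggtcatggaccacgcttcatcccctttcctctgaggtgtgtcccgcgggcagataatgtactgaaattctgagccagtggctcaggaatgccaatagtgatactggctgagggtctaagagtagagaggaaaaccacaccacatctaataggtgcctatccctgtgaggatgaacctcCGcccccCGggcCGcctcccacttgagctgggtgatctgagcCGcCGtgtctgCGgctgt
HCG4B: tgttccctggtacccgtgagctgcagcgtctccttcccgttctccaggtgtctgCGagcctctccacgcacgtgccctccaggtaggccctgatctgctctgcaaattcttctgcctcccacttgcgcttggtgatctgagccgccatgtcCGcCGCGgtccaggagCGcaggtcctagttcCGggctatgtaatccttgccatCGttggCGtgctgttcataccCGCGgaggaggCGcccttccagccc
HLA-DQA1-AS1: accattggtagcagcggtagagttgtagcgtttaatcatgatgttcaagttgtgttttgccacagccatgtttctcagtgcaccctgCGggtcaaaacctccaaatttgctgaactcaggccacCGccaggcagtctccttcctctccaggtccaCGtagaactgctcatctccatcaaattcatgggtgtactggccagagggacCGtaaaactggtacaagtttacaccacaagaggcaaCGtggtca

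The 300-base windows held 17 CpGs at HLA-G, 11 at TNF, 13 at LTA, 12 at HCG4, 20 at HCG4B and 8 at HLA-DQA1-AS1, where the median over all 35116 windows of the RefSeq table is 14. All 17 CpGs of the HLA-G window were listed with methylated reads in at least 1 library. The HCG4 and HCG4B windows were identical at 42.6% of the positions of their alignment, with gaps counted. That alignment held 168 identical positions, 38 mismatches and 188 gap positions. Long gaps cost little in it, so paired bases mostly match in any pair: HLA-F and HCG4 had 180 identical positions and 56 mismatches. The matches therefore cannot show whether HCG4 and HCG4B are copies. By the same measure the windows of the class I genes HLA-B and HLA-C were identical at 88.5%, with 8 gap positions. Whether the reads at HCG4 and HCG4B were assigned to the right gene was not tested.

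The first question was how the MHC as a whole differed between the primed and the naive state. Its mean methylation level was 69.9% ± 29.0 (SD over 2242 cytosines) in WT primed and 49.2% ± 27.0 in WT naive cells, and 72.8% ± 28.7 in KO primed and 50.7% ± 25.2 in KO naive cells. Both naive libraries were thus lower, by means of 20.8 (WT) and 22.1 points (KO). A lower naive level was found at 77.7% of WT and 84.7% of KO cytosines. With the genotypes taken as 2 pairs, naive cells differed from primed cells by -21.4 points ± 0.948 (SD, n = 2) and both pairs were lower. An exact permutation test (two-sided, swapping the states of a pair) gave p = 0.5, the smallest value possible with 2 pairs. The same difference was -22.5 points ± 0.453 in the rest of chromosome 6 and -22.3 points ± 0.452 in the other autosomes.

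Class I was the least methylated of the 3 classes in every library. Its mean was 65.7% in WT primed, 69.0% in KO primed, 46.9% in WT naive and 48.6% in KO naive cells. Class III stood at 75.7%, 78.2%, 53.1% and 54.3% in the same order, and class II at 73.1%, 75.3%, 49.7% and 51.2%. For comparison, the rest of chromosome 6 stood at 77.5%, 78.5%, 54.6% and 56.3%, above each class in every library. The smallest gap was that of class III in KO primed cells. The naive-minus-primed difference in WT and KO cells was -18.8 and -20.4 points in class I, -22.7 and -24.0 points in class III, and -23.5 and -24.1 points in class II. Class I was therefore lowest in primed cells and also differed least between the states in both genotypes. These differences between classes rest on 1 library a group and were not tested.

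**Figure D1:**
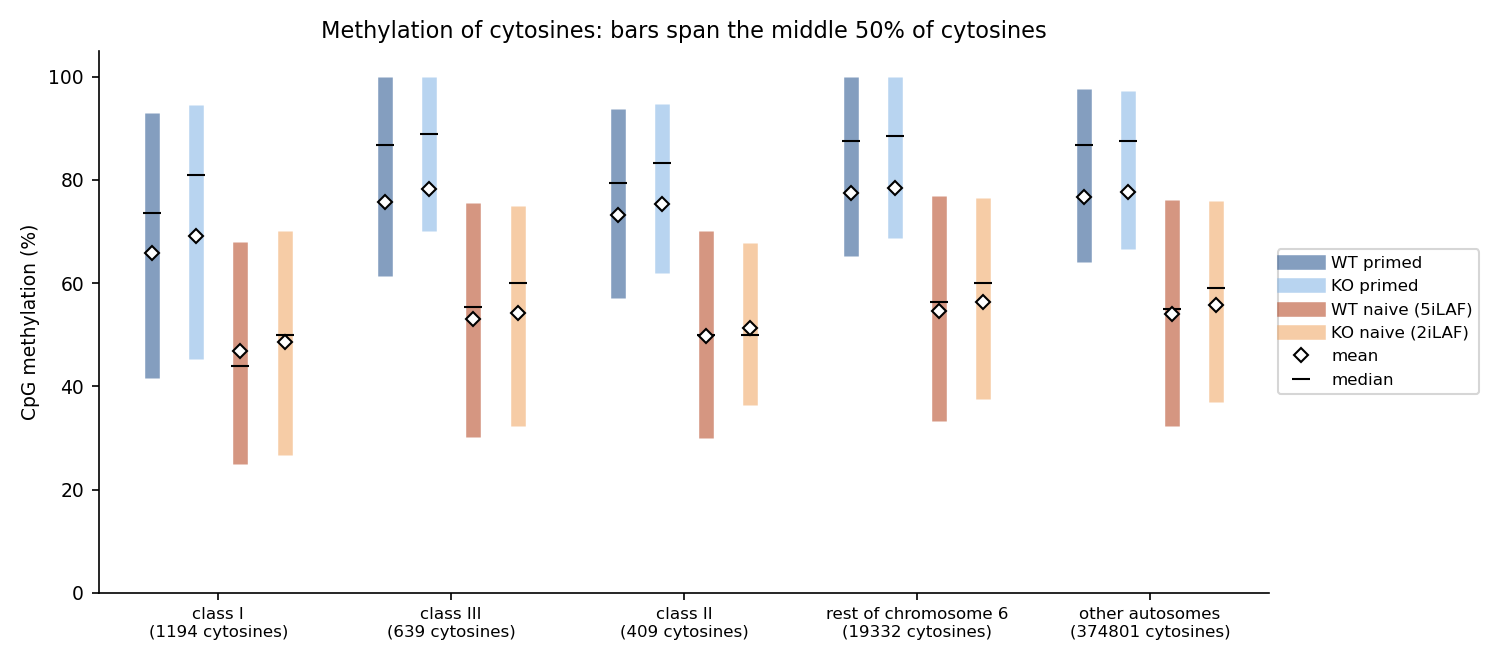
Methylation level (%) of the cytosines of class I, class III, class II, the rest of chromosome 6 and the other autosomes in each of the 4 libraries, with bars from the lower to the upper quartile of the cytosines, diamonds at the mean and lines at the median. Class I has the lowest mean in every library, from 69.0% in KO primed to 46.9% in WT naive cells, and its bars reach furthest down.

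Highly methylated cytosines were rarer in naive cells in every class. In class I 31.2% of cytosines were at 90% or above in WT primed cells (Wilson 95% interval 28.6 to 33.8%, counting error only) and 8.46% in WT naive cells (7.01 to 10.2%). The KO shares in class I were 37.8% and 3.02%. In class III WT cells had 45.7% primed and 10.49% naive, and KO cells 47.9% and 5.16%. The class II shares were 35.2% and 5.38% for WT and 40.6% and 2.20% for KO cells. At the other end, 12.3% of class I cytosines were at 20% or below in WT primed cells, against 4.65% in class II and 5.28% in the rest of chromosome 6. In naive cells the class I share was 20.02% (WT) and 19.8% (KO). Class II differed between the naive libraries here, with 17.1% of its cytosines at 20% or below in WT (13.8 to 21.1%) and 6.60% in KO cells (4.58 to 9.43%), at a median of 20 and 29 reads.

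The lowest levels of class I lay where CpGs were densest. Density was counted as the listed CpGs within 250 bp of a cytosine, and 28.1% of class I cytosines had at least 20 such neighbours, against 13.7% in the rest of chromosome 6. At these dense cytosines class I stood at 48.4% in WT primed, 54.1% in KO primed, 34.5% in WT naive and 36.0% in KO naive cells. The rest of chromosome 6 stood at 72.5%, 74.3%, 53.5% and 55.2% at the same density. Where a cytosine had 0 to 9 neighbours, the gap was smaller, at 73.3%, 74.8%, 52.2% and 54.2% in class I against 79.95%, 80.9%, 55.6% and 57.3%. With 10 to 19 neighbours class I stood at 70.5%, 74.9%, 50.7% and 51.7% against 71.6%, 72.5%, 51.7% and 53.4%. The gap thus did not grow steadily with density, and at 10 to 19 neighbours class I was the higher in KO primed cells. Density counts only listed CpGs, and mean coverage was alike in class I (26.7 reads) and the rest of chromosome 6 (25.8 reads).

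By tile, a lower naive level was about as frequent in the MHC as elsewhere. A tile was called lower or higher if its mean differed by at least 25 points and at least 80% of its cytosines moved that way. This rule considers size alone and has no p-value. In WT cells 55 of the 160 MHC tiles (34.4%) were lower in the naive library, against 37.4% of all 20581 tiles, and 1 was higher, against 0.51%. In KO cells 60 tiles (37.5%) were lower, against 34.2% of all tiles, and 0 were higher, against 0.214%. The 55 tiles of WT cells were 26 in class I, 15 in class III and 14 in class II, and the 60 of KO cells were 30, 17 and 13. Lower in both genotypes were 36 tiles, or 65.5% of the WT list and 60% of the KO list. These 36 are 22.5% of the MHC tiles, where 23.1% of all tiles were lower in both. Tiles that changed in opposite directions by the rule numbered 0.

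**Figure D2:**
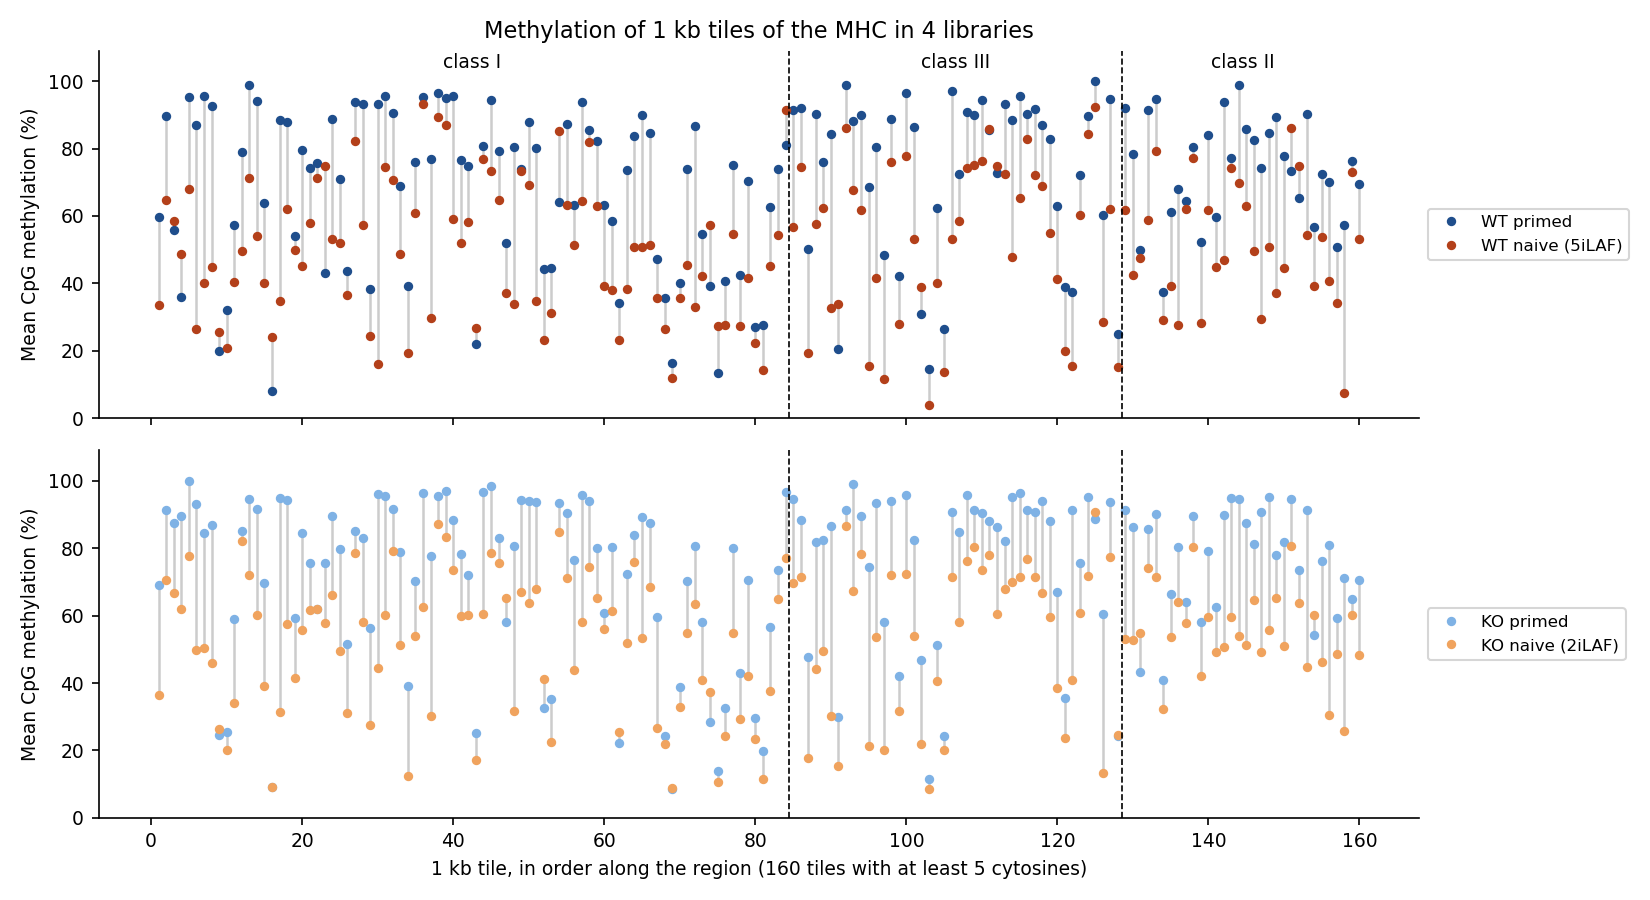
Mean methylation (%) of the 160 MHC tiles in their order along chromosome 6, with WT cells above and KO cells below, and a line joining the primed and the naive value of each tile. Most lines run downward from primed to naive in all 3 classes, and some tiles of class I and class III are low in all 4 libraries.

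At single cytosines the methylated and unmethylated reads of 2 libraries were compared with Fisher's exact test (two-sided), adjusted by Benjamini-Hochberg over all 411226 cytosines and called at an adjusted p under 0.05 and at least 25 points. Such a test compares 2 libraries, not 2 conditions. In WT cells 606 MHC cytosines were lower and 27 higher in the naive library, or 27.0% and 1.204%, against 26.7% and 0.828% of all cytosines. In KO cells 643 were lower and 13 higher, or 28.7% and 0.58%, against 27.4% and 0.392%. The test takes reads as independent molecules, but the strands of the same CpG differed by 3.13 to 4.74 times the binomial variance. With read counts divided by that ratio, WT cells had 1 lower call left and KO cells 0 (96 and 112 at an unadjusted p under 0.05). Of all 411226 cytosines, 1097 in WT and 1139 in KO cells were still called lower.

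HLA-G had the largest difference between the states among the placed class I windows with at least 5 measured cytosines. Its window stood at 89.4% ± 10.52 in WT primed, 94.4% ± 6.38 in KO primed, 21.5% ± 12.7 in WT naive and 49.6% ± 9.27 in KO naive cells (SD over 14 cytosines). All 14 cytosines were lower in the naive than in the primed library in both genotypes, with mean differences of 67.9 (WT) and 44.8 points (KO). Within the window the ranges did not overlap between states: the primed cytosines lay between 67.6 and 100% and the naive ones between 8.70 and 64.3%. How often this occurs elsewhere was not counted. Over the 17 cytosines of the tile around the window (29795001 to 29796000) the WT ranges overlapped. The lowest WT primed value there was 63.2% and the highest WT naive value 71.4%. Closest to the start, the cytosine 6 bases upstream stood at 96.8% in WT primed and 20.7% in WT naive cells, and at 81.2% and 48.3% in KO cells. Every one of the 14 was higher in KO naive than in WT naive cells, by a mean of 28.1 points, a difference that joins genotype and medium. In the primed libraries the KO level was higher at 10 of the 14, by a mean of 4.98 points.

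Further into HLA-G, from 828 to 1092 bases downstream of the start, the difference was smaller. The 21 cytosines of that tile (29796001 to 29797000) stood at 95.7% in WT primed, 84.4% in KO primed, 40.1% in WT naive and 50.3% in KO naive cells. HLA-F, another nonclassical class I gene, was measured from 954 to 1705 bases downstream of its start, where 23 cytosines stood at 59.7%, 69.1%, 33.7% and 36.5% in the same order. The HLA-F window itself held 0 measured cytosines.

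The classical class I genes HLA-B and HLA-C, which present peptides in nearly all nucleated cells, looked different. Both windows were placed but held 0 measured cytosines, although 16 of 22 CpGs at HLA-B and 18 of 19 at HLA-C were listed in at least 1 library. Inside HLA-B, 11 cytosines from 504 to 924 bases downstream of the start stood at 13.4% in WT primed, 13.8% in KO primed, 27.4% in WT naive and 10.8% in KO naive cells. Inside HLA-C, 11 cytosines from 776 to 864 bases downstream stood at 16.4%, 8.63%, 11.8% and 8.97%. The next 32 HLA-C cytosines, from 875 to 1118 bases, stood at 35.7%, 24.4%, 26.5% and 22.0%. These stretches were low in all 4 libraries, below 40% on average. Since HLA-B and HLA-C are close copies, which gene the reads came from is uncertain.

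MICB, a stress-induced ligand of the natural killer receptor NKG2D, was likewise low upstream of its start. The 6 cytosines from -846 to -362 bp relative to the start stood at 27.6% in WT primed, 19.9% in KO primed, 14.2% in WT naive and 11.6% in KO naive cells. The collagen receptor DDR1 had 1 measured cytosine in its window, at 18.2%, 29.2%, 46.2% and 50%, and so was higher in both naive libraries. Around the DDR1 start the tile of 6 cytosines went the other way, with 44.7%, 35.3%, 31.2% and 22.4%.

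In class III the cytokine genes TNF and LTA were both methylated in primed cells and less so in naive cells, TNF by more. The TNF window stood at 92.4% ± 12.5 in WT primed, 86.7% ± 13.4 in KO primed, 33.3% ± 16.6 in WT naive and 25.4% ± 20.8 in KO naive cells (SD over 6 cytosines). All 6 were lower in the naive library in both genotypes, by means of 59.1 and 61.3 points. The ranges of the states did not overlap within the window, and how often this occurs elsewhere was not counted. The tile that holds them (31543001 to 31544000) was the class III tile with the largest decrease by the mean of both genotypes, with 84.2%, 86.5%, 32.5% and 30.3% over 13 cytosines. Over these 13 the WT ranges overlapped, with a lowest primed value of 54.5% and a highest naive value of 66.7%. The LTA window stood at 83.1% ± 16.9, 82.2% ± 18.9, 59.97% ± 17.5 and 46.8% ± 19.6 over 12 cytosines, so its states overlapped. At LTA 11 of 12 cytosines were lower in the naive library in each genotype. In these windows KO naive cells were below WT naive cells at 9 of the 12 LTA cytosines and at 5 of the 6 TNF cytosines, the opposite direction to HLA-G. In the other autosomes 46.7% of cytosines were lower in KO naive cells. Over the 13 cytosines of the TNF tile 7 were lower and 6 higher, with a mean difference of -2.24 points.

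**Figure D3:**
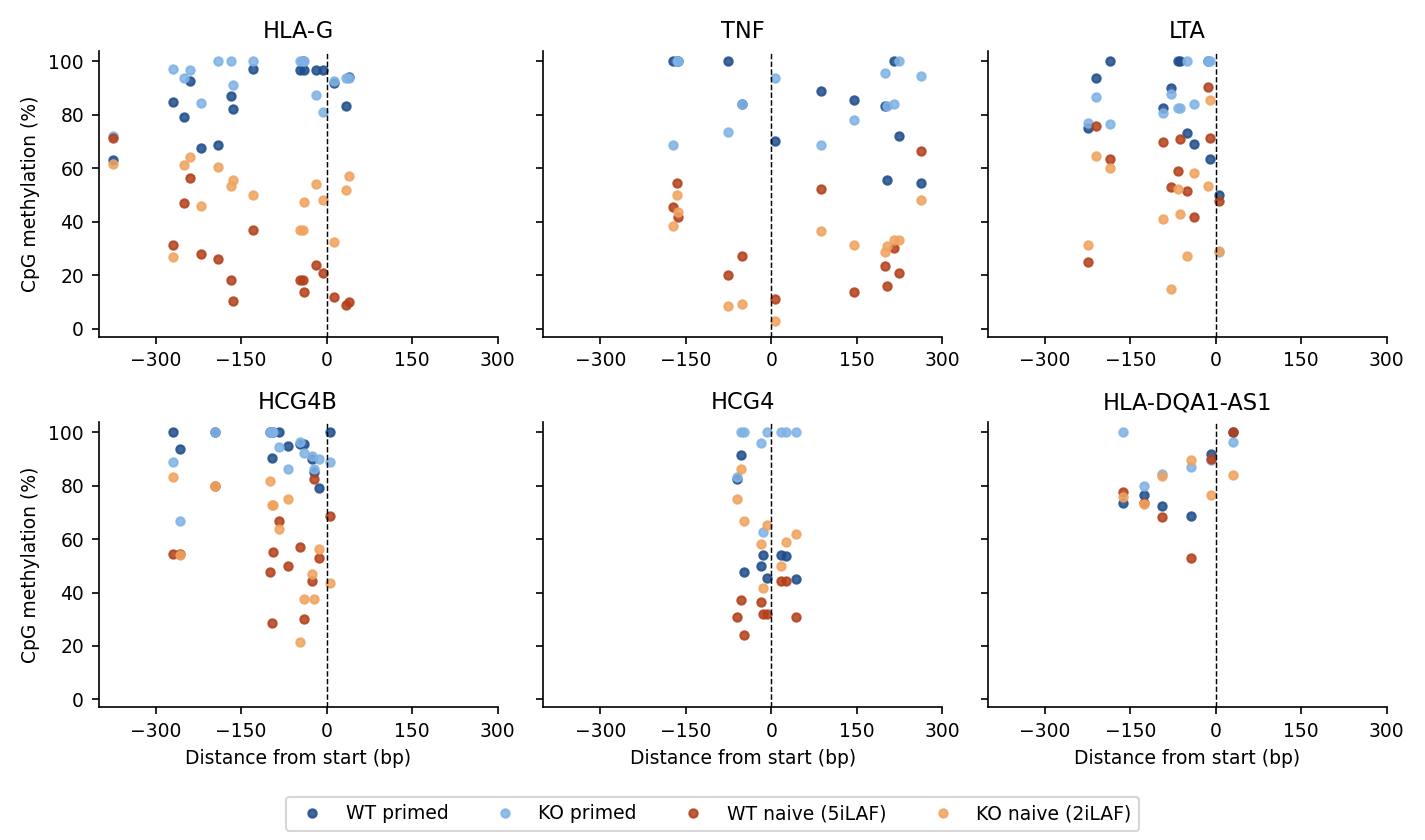
Methylation (%) of single cytosines against their distance from the start of transcription (bp) at HLA-G, TNF, LTA, HCG4B, HCG4 and HLA-DQA1-AS1, with 1 point per cytosine and library. From 250 bp before to 50 bp after the start the primed and naive points separate fully at HLA-G and TNF, overlap at LTA, and lie together at HLA-DQA1-AS1. With the points outside that stretch included, the WT ranges overlap at HLA-G and TNF.

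The heat shock gene HSPA1A encodes an inducible chaperone and was low in all 4 libraries. Over 15 cytosines from 45 to 235 bases downstream of the start it stood at 14.5% in WT primed, 11.6% in KO primed, 4.01% in WT naive and 8.64% in KO naive cells. HSPA1A has a near copy, HSPA1B, so the assignment of its reads is uncertain. Upstream of the complement gene C2, 17 cytosines from -1007 to -780 bp relative to the start were high in every library, at 89.8%, 91.5%, 75.2% and 80.3%. The windows of C2 and HSPA1L held 0 measured cytosines.

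In class II, named starts were few. HLA-DPA1, the alpha chain of the DP class II protein, had 24 of its 27 CpGs listed in at least 1 library, but only 1 measured cytosine, at 8.33% in WT primed, 5% in KO primed, 5.71% in WT naive and 12.5% in KO naive cells. Neither window of PSMB8, an immunoproteasome subunit that cuts peptides for class I, held a measured cytosine. HLA-DQA1-AS1 was the placed class II window with the most measured cytosines and differed less between the states than the HLA-G, TNF and LTA windows. It stood at 80.5% ± 12.4 in WT primed, 89.5% ± 7.48 in KO primed, 77.1% ± 16.5 in WT naive and 80.4% ± 6.31 in KO naive cells (SD over 6 cytosines). Its naive-minus-primed difference was -3.37 points in WT cells, with 4 of 6 cytosines lower and 1 higher. In KO cells it was -9.09 points, with 5 of 6 cytosines lower and 1 higher. The SDs over cytosines do not measure the error of these differences between single libraries.

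Of the genes fixed in the lists for this region, 13 could be placed: HLA-B and HLA-C of the classical class I genes, HLA-F, HLA-G and MICB of the nonclassical ones, HLA-DPA1 of the class II chains, PSMB8 of peptide processing, C2 of complement, TNF and LTA of the cytokines, HSPA1A and HSPA1L of the heat shock genes, and DDR1 of the receptors. Measured cytosines lay in the windows of 6 of these 13. HLA-G, TNF and LTA had 6 or more and were lower in both naive libraries, and HSPA1A, HLA-DPA1 and DDR1 had 1 each. Over all placed windows, 14 held a measured cytosine and 8 held at least 5. All 8 were lower in the naive library in both genotypes on average, with differences from -67.9 to -3.37 points for WT and from -61.3 to -9.09 points for KO cells. A window could only be placed where its CpGs were listed, so these 8 are a selection of methylated starts. A lower naive mean was also the usual case by tile. It was found in 144 (WT) and 150 (KO) of the 160 MHC tiles, and in 17173 and 17745 of the 18699 tiles of the other autosomes.

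Away from named starts, the 3 class I tiles with the largest mean decrease over both genotypes included, beside the HLA-G start, the tile at 30292001 to 30293000 between the placed genes TRIM26 and RPP21. It stood at 93.3% ± 14.9 in WT primed, 95.9% ± 7.1 in KO primed, 16.0% ± 9.1 in WT naive and 44.4% ± 11.8 in KO naive cells (SD over 7 cytosines). The tile at 29924001 to 29925000 stood at 88.6%, 95.02%, 34.8% and 31.3% over 16 cytosines. In class III the tile at 31621001 to 31622000 stood at 68.5%, 74.3%, 15.5% and 21.3%, and the one at 32153001 to 32154000 at 60.4%, 60.5%, 28.4% and 13.3%. In class II the largest decrease was at 33091001 to 33092000, at higher coordinates than HLA-DPA1, with 57.3% ± 21.9, 71.1% ± 15.5, 7.6% ± 5.3 and 25.8% ± 9.6 over 9 cytosines. The other two were at 32906001 to 32907000, with 74.3%, 90.6%, 29.3% and 49.2%, and at 32800001 to 32801000, with 93.7%, 89.7%, 46.8% and 50.8% over 21 cytosines. Since the ranking used these same libraries, the tiles are their extremes.

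Some tiles were also highly methylated in naive cells. Both naive libraries were at 80% or above in 6 of 160 tiles (3.75%, against 4.63% of all tiles). The highest in class I was at 30587001 to 30588000, with 96.4% in WT primed, 95.4% in KO primed, 89.2% in WT naive and 87.3% in KO naive cells. In class III it was the tile at 32150001 to 32151000, with 100%, 88.6%, 92.3% and 90.6%, near the tile at 32153001, which was among the 3 with the largest decrease. In class II it was the tile at 32944001 to 32945000, with 73.4%, 94.4%, 86.0% and 80.8%. At the low end 16 tiles (10%, against 7.49% of all tiles) were below 40% in all 4 libraries, 11 of them in class I, 5 in class III and 0 in class II. They include the tiles inside HLA-B and HLA-C, upstream of MICB and at HSPA1A described above. The lowest in WT primed cells was at 29910001 to 29911000, with 8.1%, 9.2%, 24.2% and 9.1% over 11 cytosines.

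**Figure D4:**
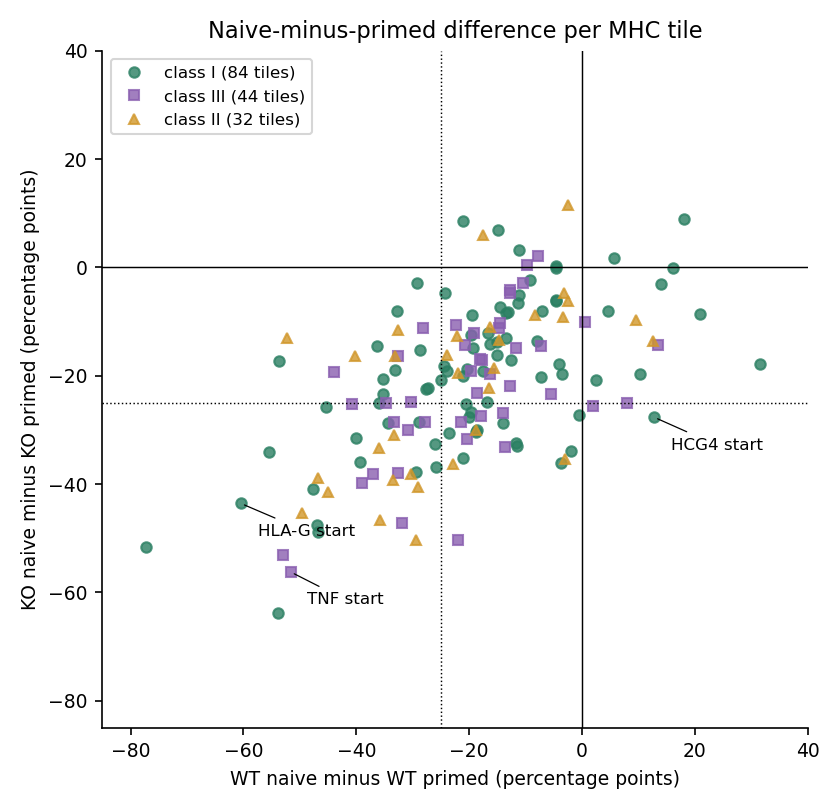
Naive-minus-primed difference (percentage points) of each MHC tile in WT cells on the horizontal axis and KO cells on the vertical axis, coloured by class. Most tiles lie below 0 in both genotypes, and the tiles at the HCG4 start and at 30113001 lie above 0 in WT and below 0 in KO cells.

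The KO and WT cells were next compared in the primed state, where both were in basal medium. The MHC mean was 69.9% in WT and 72.8% in KO primed cells, higher by 2.87 points in the KO library. The difference was 3.29 points in class I, 2.53 in class III and 2.19 in class II, against 1.03 points in the rest of chromosome 6 and 1.03 in the other autosomes. By the rule of size 5 MHC tiles were higher in KO primed cells (3.12%, against 1.31% of all tiles and 2.14% in the rest of chromosome 6) and 0 were lower (against 0.69%). Fisher's exact test with Benjamini-Hochberg adjustment called 37 cytosines higher and 10 lower, or 1.65% and 0.446%, against 0.603% and 0.323% of all cytosines. Both counts were 0 with reads divided by the variance ratio between strands and with 10 reads drawn per cytosine (0 lower and 8 higher, and 20 lower and 69 higher, at an unadjusted p under 0.05). Over all cytosines, 21 lower and 0 higher calls were left with divided reads, and 0 and 0 with drawn reads. These settings left almost no call anywhere, so the 0 counts are not particular to the MHC. Of the 37 higher calls, 18 lay in the 2 adjacent tiles at HCG4. Without these 2 tiles, an alternative chosen after the data were seen, the MHC difference was 1.92 points and 3 tiles were higher. The mean also depended on coverage: it was 1.06 points weighted by reads, with -0.045 in class III, and 0.338 points with at least 20 reads, with -0.057 in class I and -1.68 in class II.

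At HCG4 the KO primed library was the highest of the 4 and the WT primed library the lowest by tile mean. The tile with its start (29760001 to 29761000) was at 36.0% ± 22.2 in WT primed, 89.7% ± 10.4 in KO primed, 48.7% ± 15.5 in WT naive and 62.05% ± 13.3 in KO naive cells (SD over 24 cytosines). All 24 cytosines were higher in KO than in WT primed cells, and 14 were called by Fisher's exact test with Benjamini-Hochberg adjustment, none of which was left with divided or drawn reads. The neighbouring tile downstream in the gene's direction (29759001 to 29760000) was at 55.9%, 87.4%, 58.4% and 66.7% over 30 cytosines, with 28 higher in KO primed cells.

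Along HCG4 the difference was not even. At the start itself, from -60 to 44 bp, 9 cytosines stood at 58.3% in WT primed, 93.5% in KO primed, 34.6% in WT naive and 62.7% in KO naive cells. From 667 to 826 bases downstream, 13 cytosines stood at 18.4% ± 3.90, 87.8% ± 8.81, 57.3% ± 11.1 and 60.3% ± 14.5. There the WT primed range (11.8 to 26.7%) lay below all 13 values of each other library, whose lowest was 39.3%. The WT level was higher in the naive than in the primed library at all 13, by a mean of 38.9 points, whereas KO naive cells were below KO primed cells at 12 of 13, by a mean of 27.5 points. From 843 to 1227 bases, 26 cytosines stood at 51.6%, 90.1%, 56.9% and 69.4%. The cytosines of the stretches before this one were all on the minus strand, so the other strand was not measured there. Where both strands of a CpG were measured, WT primed levels could differ, at 33.3% and 77.8% for 1100 and 1101 bases. They were closer at 1120 and 1121 bases, with 72.2% and 66.7%. From 1540 to 1772 bases the primed libraries no longer differed much, at 72.5% and 74.9% over 6 cytosines. The stretches were set at the gaps between measured cytosines after the values were seen.

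**Figure D5:**
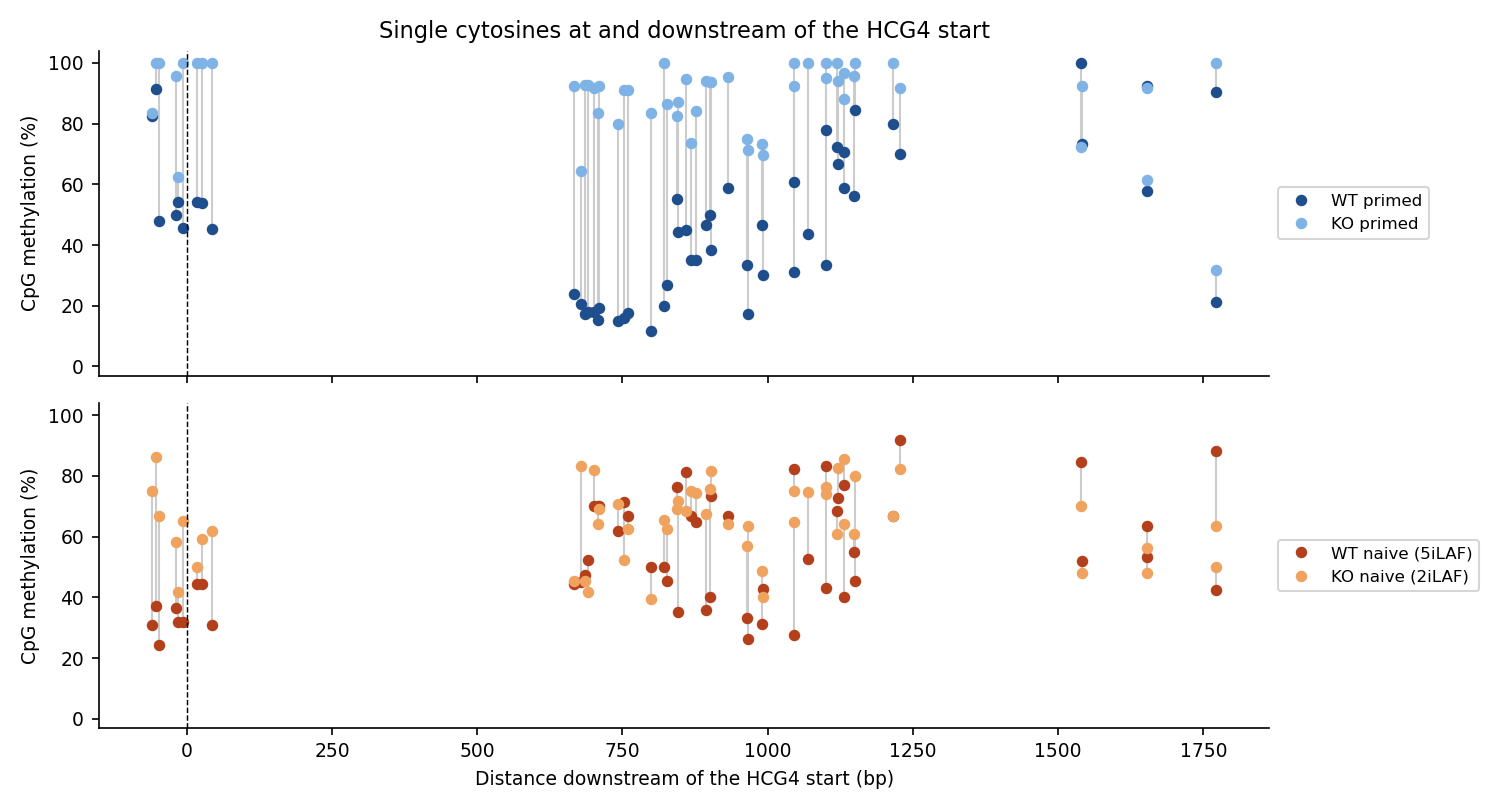
Methylation (%) of single cytosines against their distance downstream of the HCG4 start (bp), with WT and KO primed cells above, WT and KO naive cells below, and a line joining the values of each cytosine. The WT primed points lie between 11.8 and 26.7% from 667 to 826 bp, where the KO primed points average 87.8%, and the naive points of both genotypes lie together there. All cytosines of that stretch are on the minus strand.

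The largest primed difference of any MHC tile was in class III, at 32116001 to 32117000, where no placed gene was near. It stood at 37.5% ± 21.3 in WT primed, 91.2% ± 7.6 in KO primed, 15.4% ± 11.04 in WT naive and 40.9% ± 15.1 in KO naive cells (SD over 13 cytosines). All 13 cytosines were higher in KO than in WT primed cells and 12 of 13 in the naive state, where the tile was also called higher by the rule of size. The others were 30113001 to 30114000, with 43.2%, 75.5%, 74.8% and 57.7% over 7 cytosines, and 30865001 to 30866000, with 64.3%, 93.3%, 85.2% and 84.8% over 6. The first of these was the 1 MHC tile called higher in WT naive than in WT primed cells.

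The naive KO cells (2iLAF) and WT cells (5iLAF) were compared last. The MHC mean was 49.2% in WT and 50.7% in KO naive cells, a difference of 1.53 points (1.69 in class I, 1.22 in class III and 1.55 in class II, against 1.67 in the rest of chromosome 6). The MHC difference was 0.877 points with at least 5 reads and 0.894 points with unlisted cytosines filled in at 0. In class III its sign changed with the minimum coverage, at -0.207 points with 5 reads and -0.733 points with 20 reads. By the rule of size 9 MHC tiles were higher in KO naive cells (5.62%, against 2.56% of all tiles and 4.39% in the rest of chromosome 6) and 1 was lower (0.625%, against 1.29%). Of the 9 higher tiles 6 were in class I, 1 in class III and 2 in class II. Fisher's exact test with Benjamini-Hochberg adjustment called 25 cytosines higher and 12 lower, or 1.12% and 0.535%, against 0.911% and 0.527% of all cytosines. Here too both counts were 0 with reads divided by the variance ratio and with 10 reads drawn (4 lower and 13 higher, and 33 lower and 58 higher, unadjusted). Over all cytosines, 30 lower and 0 higher calls were left with divided reads, and 0 and 0 with drawn reads.

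The largest of these differences was in class II, at 32527001 to 32528000, with 27.6% ± 13.2 in WT naive and 63.9% ± 19.2 in KO naive cells over 5 cytosines, from 68.0% and 80.2% in the primed libraries. In class I the tile at 30782001 to 30783000 stood at 34.6% and 68.0% (80.1% and 93.7% primed), and the tile at 31272001 to 31273000 at 33.0% and 63.3% (86.7% and 80.6% primed). At HCG4B the tile from 992 to 1166 bases downstream of the start stood at 49.5% in WT naive and 82.2% in KO naive cells, from 78.8% and 85.2%. The window at the HCG4B start did not share this, with 55.3% ± 17.1 and 57.4% ± 19.8 over 12 cytosines, from 94.2% and 93.8%. The 1 tile that was lower in KO naive cells, at 30520001 to 30521000, had a WT naive level of 93.3% ± 10.6 and a KO naive level of 62.6% ± 8.3 over 7 cytosines, from 95.2% and 96.5% in the primed libraries.

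The 2 other windows with at least 5 measured cytosines had wide spreads. MUC22, a mucin gene of class I, stood at 58.5% ± 40.6 in WT primed, 80.2% ± 36.8 in KO primed, 38.1% ± 12.6 in WT naive and 61.4% ± 22.4 in KO naive cells over 5 cytosines. The noncoding RNA gene LINC01149 stood at 58.6% ± 29.7, 68.5% ± 26.9, 26.5% ± 10.7 and 40.4% ± 24.1 over 5. In the primed state the KO level was higher at 3 and lower at 1 of the 5 MUC22 cytosines. At LINC01149 it was higher at 3 and lower at 2 of the 5. RNF39, a ring finger gene, was the reverse case in level: its 2 measured cytosines stood at 3.17% and 2.14% in the primed libraries and at 28.9% and 9.73% in the naive libraries of WT and KO cells. RPP21, a subunit of ribonuclease P, and WHR1 also had 2 measured cytosines each. RPP21 stood at 62.7% in WT primed, 47.7% in KO primed, 16.2% in WT naive and 19.2% in KO naive cells, and WHR1 at 100%, 94.1%, 45% and 49.1%.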

How the data were processed

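Bisulfite libraries were made with a methylation capture kit, with a conversion of 99% from spiked-in unmethylated phage DNA, per the labels' protocols. Positions are on hg19 (GRCh37), per the submitters' processing notes. How reads were aligned, deduplicated and called is not given in the sources used here. For each cytosine and strand the authors deposited raw read counts (total, context and methylated coverage). The deposited methylation level is a fraction, printed here as a percentage, and it equalled methylated over context coverage. No table held a cytosine without a methylated read.

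Cytosines with at least 10 context reads in all 4 libraries were averaged with equal weight, with the strands of a CpG kept apart. The 1 kb tiles needed at least 5 cytosines. Fisher's exact tests and the Benjamini-Hochberg adjustment used functions written for this purpose in Python 3.11.15. The Fisher p-values of a sample of cytosines were compared with those of SciPy 1.17.1. Wilson 95% intervals were computed with statsmodels. The tests and intervals cover counting error only. Both the Fisher test and the rule for tiles were first tested on simulated data. The members, gene lists and tests were chosen with earlier results of these data known.

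An hg19 annotation was not used here. RefSeq promoter windows (GRCh38.p14, from HLA-F to HCG24 in gene order) were placed where every listed CpG of the stretch fell on a CpG of the sequence, at least 8 distinct CpGs were listed and the best place was unique. Counting distinct CpGs in place of listed cytosines, which is stricter, was decided after seeing the data. Of 4130 windows from other chromosomes 2 were placed in the region by the same rule. All placed windows had the same shift from their position in the table. Tiles were named if among the 3 largest decreases or the 3 highest naive levels of their class, together with every tile higher in a naive library, and up to 5 tiles per direction for the KO comparisons. Placed genes of the lists were named, and HCG4, HCG4B, HLA-DQA1-AS1, MUC22, LINC01149, RNF39, RPP21 and WHR1 were chosen after their values were seen.

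Alternatives were minimums of 5 and of 20 reads, levels weighted by reads, an upper limit of 100 reads, merged strands, 10 reads drawn per cytosine, filling in unlisted cytosines at 0 methylated reads from a listed neighbour within 25 bp, tiles of at least 10 cytosines, a difference of 50 points, class boundaries moved by 50 kb, and read counts divided by the variance ratio between strands.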

Additional observations from a re-analysis of the deposited data

Results flagged for a closer look

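In 7 of the tiles chosen for naming the level was higher in the naive than in the primed library in 1 genotype and lower in the other, and this difference between the genotypes was not tested. Naming by high naive levels and large KO-minus-WT differences favours such tiles, and their share over all tiles was not counted. Of all 160 MHC tiles, 16 (WT) and 10 (KO) were higher in the naive library, against 1524 and 954 of 18699 tiles of the other autosomes. At HCG4 the naive-minus-primed difference was 2.49 points (WT) and -20.7 points (KO) in the tile at 29759001, and 12.7 and -27.6 points in the tile at 29760001. In the tile at 30113001 it was 31.6 and -17.8 points, and in the tile at 30865001 it was 20.9 and -8.51 points. The tile at 32944001 in class II moved by 12.6 and -13.7 points. In all 5 of these the WT primed library was the lowest of the 4, which follows largely from how they were chosen. All were flagged here with WT naive above WT primed cells. All but the tile at 32944001 had been named for a higher level in KO than in WT primed cells. The remaining tiles moved little in 1 genotype: 0.495 points (WT) and -10.1 points (KO) at 31948001, and -7.74 and 2.06 points at 32150001, the latter being the 1 tile that was higher in KO and lower in WT naive cells.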

How the results depend on the processing

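Every alternative for the MHC mean kept a lower level in both naive libraries. With unlisted cytosines filled in at 0, the naive-minus-primed difference was -17.98 (WT) and -19.5 points (KO), the naive KO-minus-WT difference was 0.894 points, and 2 tiles were lower in KO than in WT naive cells. At a minimum of 5 reads (4261 cytosines, 311 tiles), 120 tiles were lower and 2 higher in WT naive cells, the KO difference was -22.98 points with 124 tiles lower, 2 tiles were lower and 8 higher in KO primed cells, and the naive KO-minus-WT difference was 0.877 points with 6 tiles lower and -0.207 points in class III, a change of sign. At a minimum of 20 reads (510 cytosines, 33 tiles), 15 tiles were lower and 0 higher in WT naive cells, and the KO difference was -19.5 points with 12 tiles lower. The primed KO-minus-WT difference was then 0.338 points with 2 tiles higher, and changed sign in class I (-0.057) and class II (-1.68), and in the naive state 0 tiles were lower and 1 higher, with -0.733 points in class III. Weighted by reads, 0 tiles were higher in WT naive cells, the KO difference was -19.8 points, and the primed KO-minus-WT difference was 1.06 points, with -0.045 in class III.

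With at least 10 cytosines per tile (50 tiles), 16 tiles were lower and 0 higher in WT naive and 22 lower in KO naive cells; 3 were higher in KO primed cells, and 0 were lower and 2 higher in KO than in WT naive cells. At 50 points, 8 tiles were lower and 0 higher in WT naive and 6 lower in KO naive cells, 2 were higher in KO primed cells, and 0 were lower and 0 higher in KO than in WT naive cells. Without the 2 tiles at HCG4, the primed difference was 1.92 points with 3 tiles higher. With reads divided by the variance ratio, Fisher's exact test with Benjamini-Hochberg adjustment called 1 cytosine lower in WT naive cells and 0 in each other direction and comparison; at an unadjusted p under 0.05 it gave 96 lower and 0 higher in WT naive, 112 and 0 in KO naive, 0 and 8 in KO primed, and 4 and 13 in KO against WT naive cells. With 10 reads drawn it called 73 lower and 1 higher in WT naive, 59 and 0 in KO naive, and 0 and 0 in both KO-against-WT comparisons (391 and 18, 335 and 5, 20 and 69, and 33 and 58 unadjusted). Over all 411226 cytosines drawn reads gave 15356 lower and 216 higher in WT naive, 9739 and 55 in KO naive, and 0 and 0 in both KO-against-WT comparisons. Divided reads gave 1097 and 1 in WT naive, and 1139 and 1 in KO naive cells, over all cytosines. The causes of these shifts were not tested. The small KO-minus-WT means thus depend on coverage and weighting.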
